A study of Mus musculus with 22 samples.

Results

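The comparison set mock-edited leukemia cells recovered from the spleen against mock-edited leukemia cells kept in culture, and used 7 of the 22 samples of the series, 4 labelled spleen and 3 labelled culture. The cells were TCL1-355 TKO, a murine leukemia line derived from the Eμ-TCL1 model of chronic lymphocytic leukemia (CLL), which carries biallelic engineered lesions that include Cdkn2a and Cdkn2b, and both groups were NFKBIE-wild type. Mock editing means Cas9 given without the guide that targets the gene. For the spleen samples, the cells had been propagated for 21 days in a C57BL/6 mouse and injected intraperitoneally into C57BL/6 recipients, from which spleen cells were taken 10 days later without purification, so that cells of the host were part of the RNA. For the culture samples, spleen cells of 3 mice had been kept in separate cultures for 2 weeks. The line expresses an autoreactive B-cell receptor, and all mock samples go back to 1 line, so that the p-values measure the spread between mice and cultures of that line. The labels give blood as the tissue of every sample, and the compartment was taken from the sample titles. The 7 samples held between 24656921 and 26317997 estimated counts each.

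CLL cells divide and receive survival signals mainly in lymphoid tissue, where contact with stromal cells, T cells and antigen engages the B-cell receptor, chemokine receptors and the NF-κB pathway. In culture the organ around the cells is absent, and they live in medium with serum. The paper states, however, that this line still depends on its B-cell receptor when it grows in vitro. The comparison therefore asks which genes of 1 leukemia differ between the organ and the dish.

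Among the 7 samples, the sample labelled spleen 4 and the sample labelled culture 3 went against their labels. Levels are given in CPM, the counts of a gene scaled to the depth of each sample. Across 8980 genes, the log2 level in spleen 4 correlated with culture 1 and 2 at r = 0.981 and 0.966, and with spleen 1 to 3 at 0.870 to 0.911. Culture 3 correlated with spleen 1 to 3 at 0.956 to 0.982, and with culture 1 and 2 at 0.897 and 0.866. These correlations are across genes, which are not independent replicates. No label states an exchange, and the exchange was proposed from expression values, so each result is given in 3 ways, as labelled, without both samples (3 spleen against 2 culture), and with their labels exchanged. The exchanged comparison shows how far the labels of 2 samples decide a result and is not evidence for either assignment. No pair of samples agreed within sampling noise, so none was counted as 1 sample.

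A placement that used neither mock group came from NFKBIE-ko cells of the same line, which were compared between spleen (4 samples) and culture (3 samples) in the same way. In these, 1088 genes (8.81% of 12354 tested) were higher and 778 (6.3%) lower in the spleen. For each sample, the mean log2 level of the lower genes was subtracted from that of the higher genes. The difference was between -0.144 and 0.183 in NFKBIE-ko spleen samples and between -2.79 and -2.68 in NFKBIE-ko cultures. Mock spleen 1, 2 and 3 lay at -0.177, 0.054 and -0.253, and mock culture 1 and 2 at -2.05 and -2.60. Spleen 4 lay at -2.31, between both cultures, whereas culture 3 lay at -0.094, within the range of spleen 1 to 3.

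**Figure D1:**
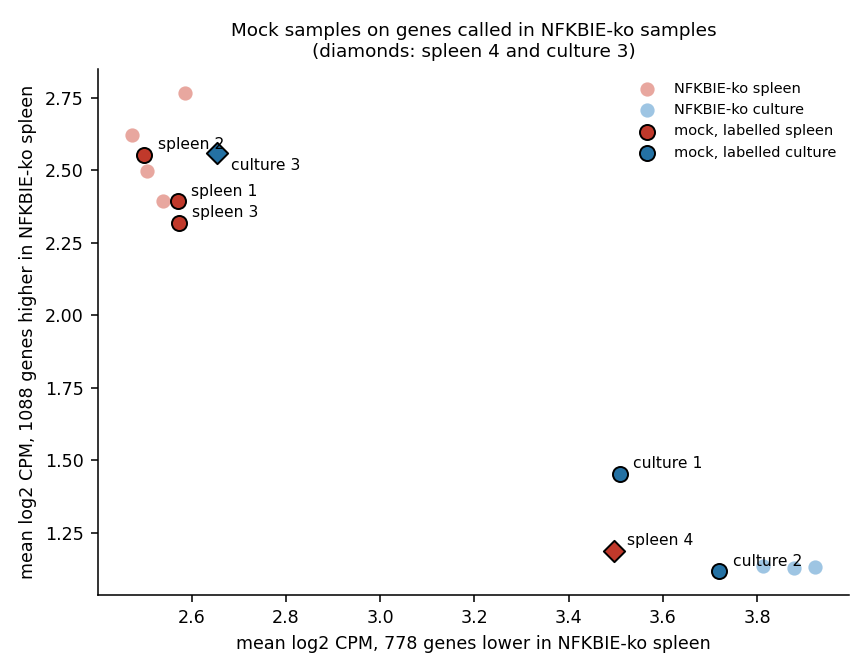
Mean log2 level (CPM) of the 1088 genes higher (vertical axis) against the 778 genes lower (horizontal axis) in NFKBIE-ko spleen than in NFKBIE-ko culture, with 1 point per sample. The diamond of spleen 4 lies beside the mock and NFKBIE-ko cultures at the lower right, and the diamond of culture 3 lies among the spleen samples at the upper left.

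The choice of samples decided whether any gene was called. A gene was called when the adjusted p of edgeR's quasi-likelihood test was below 0.05 and its level differed by more than 2-fold, a log2 fold change over 1 or under -1. As labelled, 12349 genes were tested and 0 were called (0%), with a smallest adjusted p of 0.999. At an unadjusted p below 0.05 with the same fold, 10 genes were higher and 40 lower in the spleen, and DESeq2 called 0 as well. Without the 2 samples, 387 of 12471 genes were higher in the spleen (3.1%) and 339 lower (2.72%), 5.82% in all. With the samples exchanged, 873 were higher (7.07%) and 518 lower (4.19%), 11.3% in all. The counts of list members given below are to be read against these shares. Of the 387 and 339 calls, 379 (97.9%) and 307 (90.6%) were also called in the same direction after the exchange, where they made up 43.4% and 59.3% of the calls. Leaving out spleen 1, 2 or 3 as well left 89, 84 and 170 higher and 79, 95 and 177 lower genes, and leaving out culture 1 as well gave 770 and 565. The coefficient of biological variation between samples of a group was 0.430 as labelled, 0.276 without the 2 samples and 0.247 after the exchange.

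The 2 samples in doubt had no part in the calls made without them and could be placed on them. Of the 387 genes higher in spleen 1 to 3, spleen 4 lay on the culture side of the midpoint between the group means for 384, and culture 3 lay on the spleen side for 370. Of the 339 lower genes, spleen 4 lay on the culture side for 280 and culture 3 on the spleen side for all 339. As labelled, the sign was kept for 370 of the 387 higher genes and for all 332 lower genes that were tested, but the median log2 fold change was 0.64 in place of 4.27, and -0.78 in place of -1.86. What depended on the labels was therefore the size of the changes and every call, and for 17 higher genes also the sign.

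Genes of cholesterol synthesis and uptake, the targets of the transcription factor SREBP2, were lower in the spleen than in culture. Cells make these enzymes when sterols in their membranes run low. Of 22 members tested, 19 were lower and 0 higher without the 2 samples, with a median log2 fold change of -1.80, against 0.02 over all genes. With the samples exchanged the same 19 genes were lower, at a median of -1.76, and as labelled 0 were called, at a median of -0.70. Leaving out any 1 of the 5 remaining samples left 16 to 19 calls. Without the 2 samples the groups did not overlap for 21 of the 22 members, against 42.9% of all genes, and the same number held after the exchange (35.4% of all genes), while as labelled they overlapped for all 22 (1.91% of all genes did not). These shares of all genes count both directions together, whereas the 21 members were all lower. In NFKBIE-ko cells, which share no sample with the mock comparison, the same 19 genes were lower. Erythroid and neutrophil genes, described below, changed in the same samples, and the part of host cells in this result was not tested.

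Sqle (ENSMUSG00000022351, GRCm39, chr15:59186869-59203043), which encodes squalene epoxidase, a rate-limiting step of sterol synthesis, shows how the labels acted. Its level was 36.1, 28.1 and 32.0 CPM in spleen 1 to 3 and 381 CPM in spleen 4, and 360 and 358 CPM in culture 1 and 2 but 27.7 CPM in culture 3. Each group as labelled held both the low and the high level. As labelled the means were 119 ± 175 CPM (SD, n = 4) and 248 ± 191 CPM (SD, n = 3). The log2 fold change was then -1.05 (SE 1.17). Without the 2 samples they were 32.0 ± 4.0 CPM (SD, n = 3) and 359 ± 1.71 CPM (SD, n = 2), 11.2-fold lower in the spleen (log2 fold change -3.49, SE 0.17, edgeR adjusted p 0.000752).

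Hmgcs1, which forms the precursor of mevalonate, was at 44.1, 37.1 and 44.4 CPM in spleen 1 to 3, 255 CPM in spleen 4, 250 and 302 CPM in culture 1 and 2 and 41.4 CPM in culture 3. The gene followed the pattern of Sqle in all 7 samples. Srebf2, which encodes SREBP2 itself, and Cyp51, a demethylase of lanosterol, fell by 1.81 and 2.56 on the log2 scale without the 2 samples. Mvk, Pmvk and Ebp were the members not called, with log2 fold changes of -0.40, -0.20 and 0.14.

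**Figure D2:**
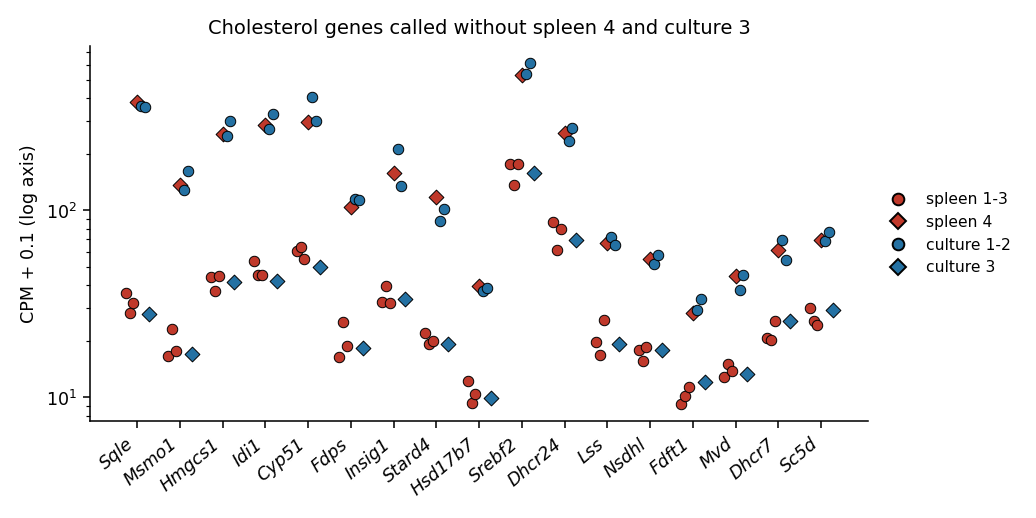
Levels (CPM + 0.1, log axis) of 17 of the 19 cholesterol genes called without spleen 4 and culture 3, with 1 point per sample. For every gene shown, spleen 4 (red diamond) lies with culture 1 and 2 and culture 3 (blue diamond) lies with or beside spleen 1 to 3.

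The promoter of Hmgcs1 is shown because it was the member whose sequence holds the sterol regulatory element, the site SREBP2 binds, in the form TCACNCCAC on either strand. Promoters of 300 bases, with 250 before and 50 after the start, came from RefSeq (GRCm38.p6, a build other than that of the counts), and 15 of the 22 members matched. Of these, 1 (6.67%) held the motif, against 1.44% of the 27025 genes with a promoter. The region is chr13:119690101-119690400, plus strand, with the motif in capitals.
Hmgcs1: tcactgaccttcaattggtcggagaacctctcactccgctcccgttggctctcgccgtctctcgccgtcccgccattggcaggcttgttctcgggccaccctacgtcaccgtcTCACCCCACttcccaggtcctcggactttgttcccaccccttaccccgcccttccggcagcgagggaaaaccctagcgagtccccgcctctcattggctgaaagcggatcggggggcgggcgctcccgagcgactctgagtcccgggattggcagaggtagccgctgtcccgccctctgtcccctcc

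Immediate-early genes, the short-lived transcription factors and phosphatases that cells make within minutes of a stimulus, were higher in spleen 1 to 3 than in culture 1 and 2. Of 20 members tested, 10 were higher and 1, Egr3, was lower without the 2 samples, at a median log2 fold change of 1.50. After the exchange 13 were higher and 2 lower, with Ier2, Ier3 and Junb added to the higher genes and Nr4a3 to the lower, and as labelled 0 were called, at a median of 0.74. Without spleen 1 or spleen 2, 6 were higher. In NFKBIE-ko cells 15 were higher and 1 was lower. The summed level of the list was 5495, 8336 and 7848 CPM in spleen 1 to 3 and 5702 CPM in culture 3, against 1233 and 1700 CPM in culture 1 and 2 and 1158 CPM in spleen 4. Erythroid and neutrophil genes, given below, were high in the same 4 samples, and their part was not tested. For flow cytometry, the paper describes spleens ground through strainers and treated to lyse red cells. Cultured cells had left the organ 2 weeks before. Site and handling of the tissue therefore cannot be told apart, and the part of handling was not tested.

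Fos (ENSMUSG00000021250, GRCm39, chr12:85520658-85524047), a subunit of the AP-1 factor, was at 942, 1112 and 1259 CPM in spleen 1 to 3 and 2.24 CPM in spleen 4. In culture 1 and 2 it was at 4.34 and 2.19 CPM, and in culture 3 at 970 CPM. Spleen 4 thus lay within the range of culture 1 and 2, and culture 3 within that of spleen 1 to 3. Without them the gene was 339-fold higher in the spleen (log2 fold change 8.40, SE 0.43, edgeR adjusted p 0.000752), while as labelled the log2 fold change was 1.37 with an SE of 2.16.

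Fosb, a second AP-1 subunit, rose by a log2 fold change of 9.11, Jun, their partner, by 5.44, and Dusp1, a phosphatase that switches off MAP kinases, by 5.97. Klf6, a zinc finger factor, rose by 3.61 and Zfp36, which destabilises cytokine mRNA, by 3.60. Klf4, another zinc finger factor, was at 6.75, 12 and 5.42 CPM in spleen 1 to 3, 7.23 CPM in culture 3 and 0 in the other 3 samples, and was at least 136-fold higher in spleen 1 to 3 than the limit that 3 counts over culture 1 and 2 allow. Nr4a1, a nuclear receptor gene induced through the B-cell receptor, was not called without the 2 samples (log2 fold change 0.71, SE 0.70, edgeR adjusted p 0.605) or after the exchange (1.04). Its level differed between culture 1 and 2, at 19.3 and 88.0 CPM.

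**Figure D3:**
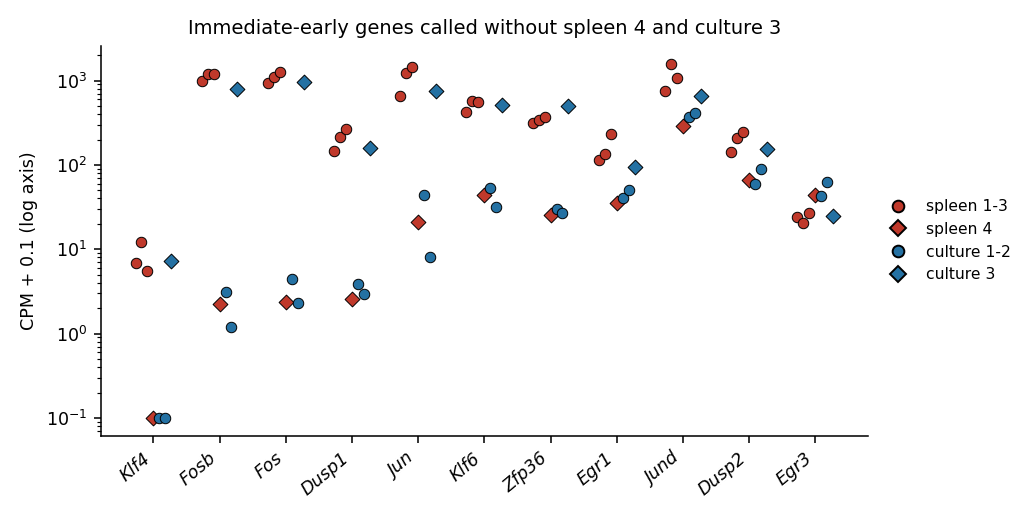
Levels (CPM + 0.1, log axis) of the 11 immediate-early genes called without spleen 4 and culture 3, with 1 point per sample. Fos and Fosb lie between 792 and 1259 CPM in spleen 1 to 3 and culture 3 and between 1.11 and 4.34 CPM in culture 1 and 2 and spleen 4.

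The promoters of Dusp1 and Zfp36 are shown since both genes moved together in the 7 samples and each holds a site through which stimuli act on immediate-early genes. The cAMP response element TGACGTCA, its own reverse complement, was found in 2 of 17 matched members (11.8%, Btg2 and Dusp1) against 2.03% of all genes. The CArG box, the site of serum response factor, was found in 2 of 17 (11.8%, Egr2 and Zfp36) against 1.81%. Neither pattern contains the other. The regions are chr17:26508423-26508722 and chr7:28379179-28379478, both on the minus strand of GRCm38.p6, with the motif in capitals.
Dusp1: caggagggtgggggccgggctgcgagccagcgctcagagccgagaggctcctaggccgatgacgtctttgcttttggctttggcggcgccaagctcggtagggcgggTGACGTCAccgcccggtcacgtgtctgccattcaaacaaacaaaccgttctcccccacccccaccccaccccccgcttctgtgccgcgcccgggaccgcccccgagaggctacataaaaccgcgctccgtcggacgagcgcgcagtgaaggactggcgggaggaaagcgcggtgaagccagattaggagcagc
Zfp36: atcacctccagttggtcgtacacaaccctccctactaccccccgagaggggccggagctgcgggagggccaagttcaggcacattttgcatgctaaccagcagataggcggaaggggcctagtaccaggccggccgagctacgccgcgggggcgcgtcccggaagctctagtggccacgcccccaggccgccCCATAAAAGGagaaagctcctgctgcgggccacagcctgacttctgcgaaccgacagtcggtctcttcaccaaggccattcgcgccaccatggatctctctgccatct

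Of the host cell lists, mainly erythroid and neutrophil genes were called higher in the spleen once the samples in doubt were left out. For T cells, the mean summed level was 211 CPM in spleen 1 to 3 and 207 CPM in culture 1 and 2, which differed (130 and 285 CPM). These means were also close for red pulp macrophages (83.8 and 83.6 CPM) and stromal cells (64.1 and 62.3 CPM). They were 93.3 and 77.9 CPM for monocytes and macrophages, and 20.2 and 38.9 CPM for dendritic cells. A sum follows the members with the highest levels, so close sums do not show that single members or host cells were alike. Without the 2 samples, 12 T-cell genes had a positive and 3 a negative log2 fold change, at a median of 1.25. For red pulp macrophages 5 were positive and 2 negative, at a median of 2.44, and for stromal cells 5 and 4, at 0.25. In bulk samples, fewer cells of a type and less RNA per cell cannot be told apart. For erythroid genes, which carry oxygen and make heme, 10 of 12 members tested were higher without the 2 samples, 12 after the exchange and 0 as labelled. Their summed level was 334, 2162 and 1271 CPM in spleen 1 to 3 and 1579 CPM in culture 3, against 7.23 CPM in spleen 4 and 12.4 and 20.8 CPM in culture 1 and 2. Without spleen 2 or spleen 3, 5 were called, and without either culture, 6. With members at 0 in culture set at the limit of 3 counts, the list's median log2 fold change was 7.81 (10.2 as fitted). Alas2, the first enzyme of heme synthesis in red cells, was at 6.11, 30.0 and 25.6 CPM in spleen 1 to 3, 30.6 CPM in culture 3 and 0 in the other 3, at least 349-fold higher without the 2 samples.

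Of the 8 genes with the largest rise, 7 were at 0 in culture 1 and 2 and in spleen 4. Among them were Car1, the carbonic anhydrase of young red cells, Aqp1, a water channel, Alas2, Rhag, a red cell membrane protein, Ces2g, a carboxylesterase, and Ank1, which anchors the red cell skeleton. Against the limit of 3 counts, Car1 was at least 922-fold and Ank1 at least 156-fold higher. Hbb-bs, the adult beta-globin, completed the 8, with 75.3, 771 and 424 CPM in spleen 1 to 3, 404 CPM in culture 3, 0.241 CPM in culture 1 and 0 in culture 2 and spleen 4. The fitted difference of Ank1 was negative as labelled, since culture 3 at 26.1 CPM exceeded each spleen sample, of which spleen 2 was highest at 13.2 CPM.

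Neutrophil genes behaved in the same way, with 8 of 11 tested members higher without the 2 samples, 10 after the exchange and 0 as labelled. The summed level was 237, 441 and 71.7 CPM in spleen 1 to 3 and 234 CPM in culture 3, but 0.155 CPM in spleen 4, 4.87 CPM in culture 1 and 0.192 CPM in culture 2. S100a9, a calcium-binding protein abundant in neutrophils, was at 80.1, 143 and 21.0 CPM in spleen 1 to 3 and 76.0 CPM in culture 3. It was at 0.563 CPM in culture 1 and 0 in culture 2 and spleen 4. Without spleen 1, or without spleen 2, 0 neutrophil genes were called, while 7 were called without spleen 3. Without culture 2, 1 was called.

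Genes of monocytes and macrophages were called higher in 4 and lower in 1 of 13 members without the 2 samples, and in 6 and 1 after the exchange. C1qa, a complement component of tissue macrophages, was at 4.98, 3.24 and 6.24 CPM in spleen 1 to 3, 6.33 CPM in culture 3, 0.0804 CPM in culture 1 and 0 in the other 2. The ratio of spleen 1 to 3 over culture 1 and 2, which held 2 counts, was 123 (95% exact counting interval 33.8 to 1021). The lower gene was Adgre1, the macrophage antigen F4/80, at 2.33, 1.78 and 1.95 CPM in spleen 1 to 3 and 23.5 and 21.3 CPM in culture 1 and 2. It ran against the 4 members called higher, with 12.8 CPM in spleen 4 and 2.43 CPM in culture 3. Of the 13 members, 9 had a positive and 4 a negative log2 fold change without the 2 samples.

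T-cell genes depended on the choice beyond leaving out the samples. Without them 2 of 15 members were higher (against 3.1% of all genes), Trac and Trbc1, which encode constant regions of the T-cell receptor. After the exchange 5 were higher (against 7.07% of all genes), with Cd2, Cd3e and Trbc2 added. Lck, a kinase of T cells that B cells of the B-1 type also use, was then lower. Cytotoxic and NK-cell genes went from 0 of 9 to 3 of 10, with Cd8a, Cd8b1 and Klrb1c. Red pulp macrophage genes went from 2 to 4 higher of 7, with Axl, a receptor kinase for dying cells, lower after the exchange, and stromal genes from 1 to 3 of 9. Culture 1 held some cytotoxic and myeloid genes at higher levels than culture 2. The cytotoxic and NK-cell list summed to 17.4 CPM in culture 1 and 1.92 CPM in culture 2, against 13.6 to 16.1 CPM in spleen 1 to 3. Gzmb, the granzyme of cytotoxic cells, was at 8.81 CPM in culture 1 and 0 in culture 2, against 2.65, 2.63 and 3.28 CPM in spleen 1 to 3. Lyz2, the lysozyme of myeloid cells, was at 13.6 and 0.192 CPM in culture 1 and 2. Without culture 1, 770 genes were higher in place of 387, among them 6 T-cell genes.

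**Figure D4:**
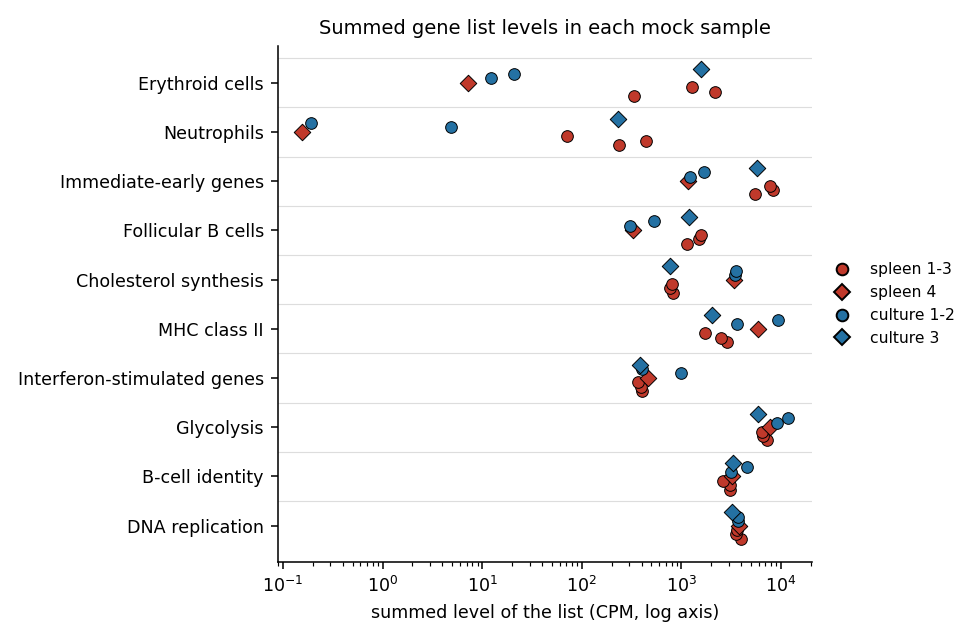
Summed level (CPM, log axis) of 10 gene lists in each of the 7 mock samples. Spleen 4 and culture 3 (diamonds) lie with the samples of the other label for the upper 5 lists, while B-cell identity and DNA replication overlap in all samples.

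Some genes of follicular B cells and of homing were higher in the spleen. Klf2, a factor that controls lymphocyte trafficking, was at 629, 913 and 1079 CPM in spleen 1 to 3, 44.7 CPM in spleen 4, 41.3 and 54.6 CPM in culture 1 and 2 and 536 CPM in culture 3. It was 18.2-fold higher without the 2 samples (log2 fold change 4.19, SE 0.33, edgeR adjusted p 0.00249). Cxcr5, the receptor that guides B cells into follicles, and Cxcr4, which binds the stromal chemokine CXCL12, both rose by a log2 fold change of 1.24. S1pr2, which retains B cells in germinal centres, rose by 1.91 at an adjusted p of 0.0499. Cxcr4 and S1pr2 were the 2 called of 12 homing and adhesion genes tested, without the 2 samples and after the exchange. Of all genes, 3.1% and 7.07% were higher. Of the 12, 8 had a negative log2 fold change without the 2 samples, at a median of -0.23. Of 8 follicular B-cell genes, 2 were higher without the 2 samples and 4 after the exchange, when Cr2, a complement receptor, was among those added.

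NF-κB targets split between both directions. Without the 2 samples 3 of 20 were higher, 3 feedback regulators of the pathway, Nfkbia, Nfkbiz and Tnfaip3, with log2 fold changes of 1.22, 1.66 and 1.51. Another 4 were lower, Ccl22, a chemokine that attracts regulatory T cells, Icam1, an adhesion molecule, Cd40, the receptor of T-cell help, and Nfkb2, the precursor of p52. The median over the list was -0.63. Of all genes, 3.1% were called higher and 2.72% lower. After the exchange the same 7 were called and Bcl2a1b and Ebi3 were added to the lower genes, and as labelled 0 were called.

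Ccl22 (ENSMUSG00000031779, GRCm39, chr8:95471226-95478327) was at 8.76, 1.94 and 6.55 CPM in spleen 1 to 3, 108 CPM in spleen 4, 89.4 and 128 CPM in culture 1 and 2 and 2.66 CPM in culture 3. It was 18.9-fold lower in spleen 1 to 3 (log2 fold change -4.24, SE 0.58, edgeR adjusted p 0.0148). In NFKBIE-ko cells the log2 fold change was 0.30, with levels from 6.42 to 223 CPM in the spleen and from 104 to 156 CPM in culture. The test of the difference between both genotypes gave -4.53 without the 2 samples (edgeR adjusted p 0.22). Icam1 and Cd40 fell by 1.33 and 1.32 on the log2 scale in mock cells and were not called in NFKBIE-ko cells, and the differences between the genotypes were not called without the 2 samples (edgeR adjusted p 0.14 and 0.24). After the exchange the difference of Icam1 was called (-1.51, SE 0.31, edgeR adjusted p 0.0393), and those of Cd40 and Ccl22 were not (adjusted p 0.0981 and 0.0648). Of the 20 members, 0 differed between the genotypes as labelled and without the 2 samples, and 2, Icam1 and the targeted gene Nfkbie, after the exchange.

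Nfkbie, which encodes the inhibitor IκBε and is intact in mock cells, was at 72.7, 70.9 and 76.9 CPM in spleen 1 to 3, 124 CPM in spleen 4, 117 and 141 CPM in culture 1 and 2 and 54.4 CPM in culture 3. The log2 fold change of -0.81 (SE 0.15, edgeR adjusted p 0.0322) did not reach the fold that a call needed.

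MHC class II genes, which present antigen to helper T cells, were called or not according to the choice of samples. Without the 2 in doubt 1 of 10 was lower, Ciita, the activator of the other members, and with them exchanged 7 were lower, although the median hardly moved (-1.14 and -1.11, and -0.46 as labelled). In NFKBIE-ko cells 10 of 10 were lower. Cd74, the invariant chain, was at 1626, 1290 and 907 CPM in spleen 1 to 3, 3833 CPM in spleen 4, 2149 and 6064 CPM in culture 1 and 2 and 1140 CPM in culture 3. The groups without the 2 samples did not overlap, but the cultures differed widely (log2 fold change -1.69, SE 0.46, edgeR adjusted p 0.0823), and spleen 4 lay between both. Ciita was at 24.3, 16.0 and 17.6 CPM in spleen 1 to 3, 85.2 CPM in spleen 4, 65.6 and 121 CPM in culture 1 and 2 and 17.6 CPM in culture 3 (log2 fold change -2.27, SE 0.31, edgeR adjusted p 0.0124). Without culture 1, 7 MHC class II genes were lower.

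Interferon-stimulated genes also differed between the cultures. Their summed level was 995 CPM in culture 1 and 402 CPM in culture 2, against 365 to 406 CPM in spleen 1 to 3, 462 CPM in spleen 4 and 385 CPM in culture 3. Isg15, a ubiquitin-like protein, was the member called lower without the 2 samples, of 28 tested, close to the 2.72% of all genes. After the exchange 4 were lower and 1, Rsad2, was higher, against 4.19% and 7.07% of all genes. In NFKBIE-ko cells 12 of 28 were higher in the spleen and 0 lower. For no member other than Usp18, a protease that removes ISG15, was the difference between the genotypes called without the 2 samples. As labelled 0 differences were called, and after the exchange 3 were, those of Usp18, Isg15 (-2.64, edgeR adjusted p 0.0195) and Oas2.

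Genes of hypoxia and glycolysis were lower in the spleen in part. Of 11 hypoxia genes, 3 were lower without the 2 samples (against 2.72% of all genes), and 4 after the exchange (against 4.19%), when Vegfa was added. Bnip3, a mitophagy receptor, was at 5.46, 3.88 and 4.56 CPM in spleen 1 to 3, 22.4 CPM in spleen 4, 50.7 and 36.3 CPM in culture 1 and 2 and 3.67 CPM in culture 3 (log2 fold change -3.23, SE 0.23, edgeR adjusted p 0.00175). Spleen 4 lay below both cultures here but above every spleen sample. Egln3, an oxygen-sensing hydroxylase, fell by 2.65 and Ankrd37 by 2.27 on the log2 scale. Of 15 glycolysis genes, 4 were lower without the 2 samples, Slc16a3, a lactate exporter, and the enzymes Pgk1, Aldoa and Tpi1. After the exchange 2 remained, Pgk1 and Slc16a3, since Aldoa (-0.89) and Tpi1 (-0.95) no longer reached the fold needed for a call.

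The promoters of Bnip3, Egln3 and Ankrd37 are shown because these 3 were the hypoxia genes called, and each holds the core of the hypoxia response element, ACGTG on either strand. The core was found in 9 of 10 matched members (90.0%) against 21.8% of all genes, and in Bnip3 its 2 matches overlap on opposite strands. The core is not part of TGACGTCA. The regions on GRCm38.p6 are chr7:138909457-138909756, chr12:54203825-54204124 and chr8:45999801-46000100, all on the minus strand, with the core in capitals.
Bnip3: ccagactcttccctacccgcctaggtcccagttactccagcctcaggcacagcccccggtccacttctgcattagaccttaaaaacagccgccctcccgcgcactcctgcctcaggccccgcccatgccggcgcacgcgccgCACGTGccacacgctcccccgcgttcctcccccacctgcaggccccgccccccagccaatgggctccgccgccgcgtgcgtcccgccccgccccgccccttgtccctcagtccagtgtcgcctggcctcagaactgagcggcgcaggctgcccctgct
Egln3: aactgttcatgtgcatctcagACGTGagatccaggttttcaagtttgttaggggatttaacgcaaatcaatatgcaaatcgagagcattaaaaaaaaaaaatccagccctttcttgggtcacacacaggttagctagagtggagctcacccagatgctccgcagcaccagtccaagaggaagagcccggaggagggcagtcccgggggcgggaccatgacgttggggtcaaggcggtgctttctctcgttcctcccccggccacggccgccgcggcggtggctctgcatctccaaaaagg
Ankrd37: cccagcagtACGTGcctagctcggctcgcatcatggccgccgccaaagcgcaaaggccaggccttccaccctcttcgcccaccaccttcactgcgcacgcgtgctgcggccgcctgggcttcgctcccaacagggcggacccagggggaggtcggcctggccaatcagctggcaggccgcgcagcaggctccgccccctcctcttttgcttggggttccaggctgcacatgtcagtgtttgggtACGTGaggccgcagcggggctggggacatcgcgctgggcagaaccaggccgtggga

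For the inducible heat shock genes, culture 3 did not lie with the spleen samples. Hspa1b (ENSMUSG00000090877, GRCm39, chr17:35175412-35178214), an inducible chaperone, was at 23.9, 7.16 and 12.5 CPM in spleen 1 to 3 and 2.10 CPM in culture 3. It was at 0.425 CPM in spleen 4 and 0.804 and 0.537 CPM in culture 1 and 2. Its near-identical copy Hspa1a was at 8.72, 2.99 and 2.89 CPM in spleen 1 to 3 and 0.936 CPM in culture 3, so that reads may be split between both. Culture 3 thus lay above the other cultures and below every one of spleen 1 to 3. Hspa1b was among the 10 genes higher as labelled at an unadjusted p below 0.05 (log2 fold change 3.28), and it rose by 4.43 without the 2 samples (SE 0.63, edgeR adjusted p 0.0145) and by 4.30 after the exchange. Of 10 heat shock genes, 2 were higher without the 2 samples (against 3.1% of all genes) and 3 after the exchange (against 7.07%), with Hspb1 added. Hspa8, the constitutive member, was not called (0.20). For these genes and the stress genes below, as for the immediate-early genes, site and handling of the tissue cannot be told apart.

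Stress response genes moved in both directions. Without the 2 samples, 3.1% of all genes were higher and 2.72% lower. Of 19 members of the integrated stress response, 3 were higher without the 2 samples, Atf3 (log2 fold change 4.13), Ddit4 (2.09) and Cebpb, and 3 were lower, Chac1 (-2.15), Trib3 (-1.91) and Pycr1 (-1.21). After the exchange Asns and Ddit3 were added to the higher genes. In the unfolded protein response 2 of 13 were higher, Herpud1 (1.37) and Dnajb9 (1.09), and 2 lower, Edem1 and Pdia6, both without the 2 samples and after the exchange. Nqo1, a quinone reductase of the oxidative stress response, fell by 3.38 and Txnrd1, which reduces thioredoxin, by 1.26 on the log2 scale, and these 2 of 9 were called in both.

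The largest falls outside the lists were in genes at low levels. Map1a, a microtubule-associated protein, was at 0.562, 0.364 and 1.13 CPM in spleen 1 to 3, 26.2 CPM in spleen 4, 33.1 and 38.7 CPM in culture 1 and 2 and 0.787 CPM in culture 3 (log2 fold change -5.69, SE 0.42, edgeR adjusted p 0.00192). Tnfsf15, a cytokine of the TNF family, held 3 counts in spleen 1 to 3 and 291 in culture 1 and 2, a ratio of 143 (95% exact counting interval 48.6 to 699). Dscam, Kif17, Pgbd5, Mfsd13a and Sh3bgr fell by 5.15 to 6.27 on the log2 scale. In each of the 7, spleen 4 exceeded spleen 1 to 3 and culture 3 was below 1 CPM.

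Other groups showed few or no calls under any of the 3 choices. Genes of DNA replication (19 tested), mitosis (22), nuclear oxidative phosphorylation (77) and the mitochondrial genome (13) had 0 calls without the 2 samples and after the exchange, when 11.3% of all genes were called. Their median log2 fold changes without the 2 samples were -0.01, -0.40, 0.11 and 0.18. Mki67, a marker of dividing cells, was at 551, 335 and 970 CPM in spleen 1 to 3 and 1070 and 839 CPM in culture 1 and 2, which overlapped. Of the 22 mitosis genes, 14 did not overlap between the groups, all of them lower in the spleen, without the 2 samples (against 42.9% of all genes) and after the exchange (35.4%), and 21 had a negative log2 fold change in both. These shares of all genes count both directions together. Cd79a, a subunit of the B-cell receptor, was at 588 to 854 CPM in spleen 1 to 3 and 932 and 1143 CPM in culture 1 and 2 (log2 fold change -0.44, SE 0.23, edgeR adjusted p 0.312). Of 12 B-cell identity genes, 1, Cd22, an inhibitory receptor, was lower without the 2 samples, and Ms4a1, which encodes CD20, was added after the exchange.

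**Figure D5:**
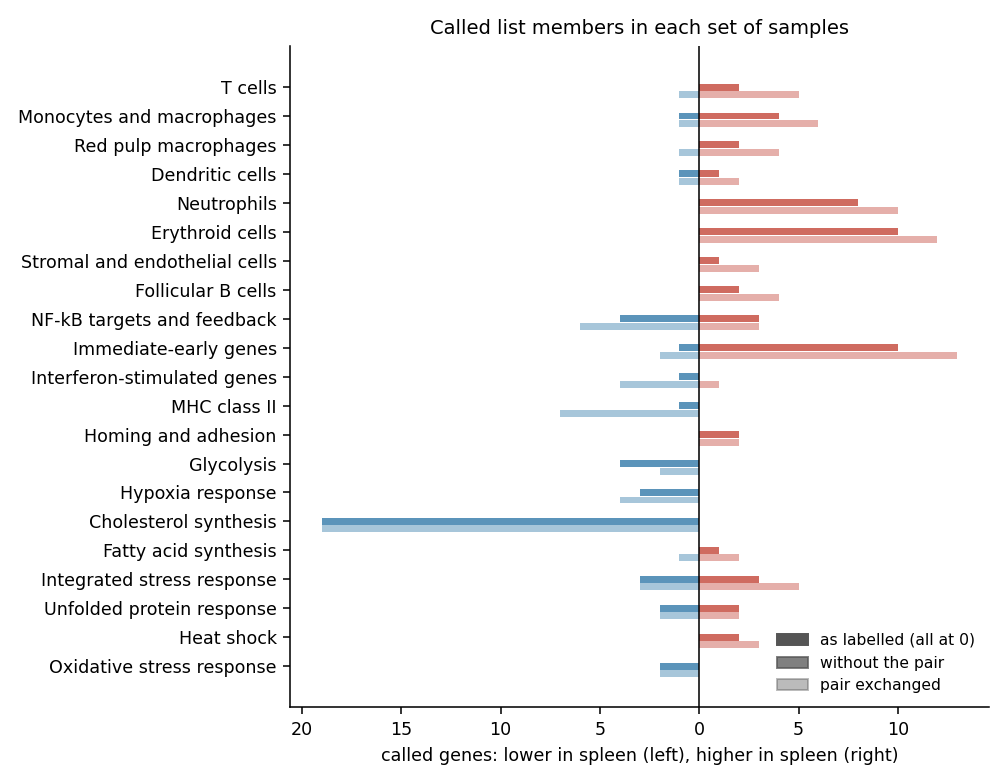
Number of genes of each list called lower (left, blue) and higher (right, red) in the spleen without spleen 4 and culture 3 (darker) and with these exchanged (lighter), for the lists with at least 4 calls in both together. As labelled every list is at 0, cholesterol synthesis keeps 19 genes in both, and MHC class II goes from 1 to 7.

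The mock difference was compared with that of NFKBIE-ko cells by an interaction term. Of the 387 higher and 339 lower genes called without the 2 samples, 287 (74.2%) and 254 (74.9%) were called in the same direction in NFKBIE-ko cells, of whose calls they made up 26.4% and 32.6%, and 0 and 1 in the opposite direction. The difference between genotypes was called for 1 of 12883 genes as labelled (0.00776%), for 7 of 13080 without the 2 samples (0.0535%) and for 71 of 12883 after the exchange (0.551%). The gene called as labelled was Fyn, a kinase of the Src family, whose log2 fold change was -0.58 in mock cells as labelled and 2.72 in NFKBIE-ko cells, and it was also called without the 2 samples (-0.48). Pou2af3, a coactivator of POU factors, was at 1.45, 1.13 and 2.07 CPM in mock spleen 1 to 3 and 10.1 and 9.44 CPM in mock culture 1 and 2, and fell by 2.65 on the log2 scale, whereas it rose by 1.43 in NFKBIE-ko cells (difference -4.07, SE 0.39, edgeR adjusted p 0.0038). For the cholesterol and immediate-early genes, the difference between genotypes was called for 0 members under each of the 3 choices, which does not show that the 2 genotypes acted alike.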

How the data were processed

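Messenger RNA of mock-edited cells from spleen (4 samples) and culture (3 samples) was compared, beside 7 NFKBIE-ko samples. The authors sequenced paired-end TruSeq libraries and estimated transcript abundance with Salmon 1.8 on GRCm39, and deposited estimated counts per transcript (expected counts), not normalized, for transcripts above 0 in at least 5 of the 22 samples. The submitters' processing notes also name CASAVA and DESeq2. The values were rounded and summed to 17023 genes of GENCODE vM39, which 62147 of 62492 transcripts matched, and the others (0.619% of counts) were left out. The samples compared, 7 or, without the 2, 5, entered each fit, and the test between genotypes added the 7 NFKBIE-ko samples (filterByExpr, TMM, robust quasi-likelihood test of edgeR 4.0.16 in R 4.3.3, Benjamini-Hochberg adjustment). SE is the log2 fold change divided by the root of F. Levels are CPM scaled by TMM over 22 samples and are not per length, so that levels are compared between samples and not between genes. All fold changes are spleen over culture.

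The members, gene lists and tests were chosen with earlier results of these data known. Named were, for each direction, the 8 protein-coding genes with the largest change among calls of at least 5 CPM, the 3 members of each list with the highest level, and Nfkbie, and other members where a count of a list was given. Some of the genes so chosen are not reported here. The sex of the samples was not analysed here, and genes were not left out of the tests by chromosome. Folds against groups at 0 used a floor of 3 counts over the group, and intervals cover counting error only. Promoter sequences were those of RefSeq (GRCm38.p6). Scripts ran in Python 3.11.15, and DESeq2 1.42.0 was an alternative.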

Additional observations from a re-analysis of the deposited data

Results flagged for a closer look

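In the group labelled spleen, 1 of the 4 samples stood far from the others in several results, by a gap to the nearest sample over the range of the group above 0.829 (Dixon's 95% limit for 4 samples). Chance gives about 1 in 20 such groups, and 7.94% of the 12349 genes tested passed the limit. The position along the NFKBIE-ko spleen-culture difference gave a ratio of 0.870, from spleen 4. The summed level of the cholesterol list gave 0.975, also from spleen 4, at 3362 CPM against 764 to 830 CPM. The summed level of the unfolded protein response list also gave 0.975, from spleen 3, at 4581 CPM against 4189 to 4199 CPM. Among the 124 genes chosen by the naming rule, 21 passed the limit (16.9%), for 16 of which spleen 4 stood apart, among them Srebf2, Cyp51, Adgre1 and Nfkbie. The 3 culture samples were too few for this check.

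The spleen-culture difference itself differed between mock and NFKBIE-ko cells for 1 gene as labelled, 7 genes without the 2 samples and 71 genes with these exchanged. Hmgb3, a chromatin protein, was at 78.2, 68.8 and 62.1 CPM in spleen 1 to 3 and 38.8 and 30.9 CPM in culture 1 and 2, a log2 fold change of 1.00, against -0.39 in NFKBIE-ko cells (difference 1.40, SE 0.18, edgeR adjusted p 0.0172). Pcdh9, a protocadherin, had log2 fold changes of -0.63 in mock cells and -2.63 in NFKBIE-ko cells (difference 2.00, SE 0.26, edgeR adjusted p 0.0172).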

How the results depend on the processing

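As labelled, 0 genes were called in either direction with the replicate block, DESeq2, RLE size factors, other filters, transcripts, all 22 samples in the fit, and each of the 7 samples left out. An unadjusted p gave 10 higher and 40 lower. Leaving out both samples in doubt gave 387 and 339, and exchanging them 873 and 518. The fitted log2 fold change of Ank1, at 0 in spleen 4, culture 1 and culture 2, turned from -0.31 to 10.9 and 11.4, which are no bounds.

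Without the 2 samples (387 higher, 339 lower), DESeq2 gave 701 and 551, all other samples in the fit 1019 and 721, an unadjusted p 871 and 673, and transcripts 22 and 18. RLE size factors and both other filters stayed within 1.5 times. Leaving out 1 sample gave 84 to 770 higher and 79 to 565 lower. Without spleen 1, 2 or 3 there were 89, 84 and 170 higher and 79, 95 and 177 lower, without culture 1 770 and 565, and without culture 2 301 and 309, where the lone culture was assumed to vary like the other group. Gzmb went from -1.61 without culture 2 to 9.18 without culture 1. Same-numbered spleen and culture samples deviated from their group means with correlations of -0.338, -0.242 and 0.453 as labelled, so the numbers did not pair the samples. A replicate block moved the counts without the 2 samples to 56 higher and 54 lower. The difference between genotypes was called for 0 higher and 1 lower gene as labelled, 3 and 4 without the 2 samples and 39 and 32 after the exchange. The cause of these shifts was not tested. With 2 cultures, the comparison without the 2 samples rests on a small number of samples, and genes near 0 limit the size of folds.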

Other observations

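Culture 1 and culture 2, which were not in doubt, differed from each other in several groups. The dendritic cell list summed to 19.5 CPM in culture 1 and 58.4 CPM in culture 2, against 18.3 to 22.9 CPM in spleen 1 to 3. Axl, a receptor of apoptotic cells, was at 23.3 and 7.37 CPM in culture 1 and 2, 21.2 CPM in spleen 4, and 2.33, 1.29 and 5.11 CPM in spleen 1 to 3. Ccr7, the receptor that guides cells to T-cell zones, was at 15.8 and 78.5 CPM in culture 1 and 2 and 25.9 CPM in spleen 4. Spleen 4 lay nearer to culture 1 than to culture 2 for Ccr7 and Axl, and across genes its correlation was also higher with culture 1 (r = 0.981) than with culture 2 (0.966). It lay nearer to culture 2 for other groups. The interferon list summed to 462 CPM in spleen 4 and to 995 and 402 CPM in culture 1 and 2. The cytotoxic and NK-cell list summed to 3.06 CPM in spleen 4 and to 17.4 and 1.92 CPM in culture 1 and 2.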
